A study of Mus musculus with 5 samples.

Results

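The 52 genes described here are the chemokines and chemokine receptors of the mouse, out of 17087 protein-coding genes and 30046 features in the deposited counts. They were chosen by symbol alone: 30 ligands of the Ccl, Cxcl, Cx3cl and Xcl families and 22 receptors, of which 4 are atypical receptors of the Ackr family. *Cxcl12* was left out, since its locus carries the reporter that was used to sort the cells. *Ccl1*, *Ccl21a*, *Ccl21b*, *Ccl26*, *Ccl27b*, *Cxcl17* and *Cxcr1*, 7 further genes of the families, were not analysed here.

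Cxcl12-GFP high tdTomato+ cells, the reticular stromal cells of the marrow, were sorted from femurs at postnatal day 21 after a single tamoxifen pulse at embryonic day 12.5, and the study compared those that descend from early perichondrial cells with those that descend from chondrocytes of the cartilage template. In 3 libraries (Dlx5 libraries, replicates 1, 2 and 3) the mice were Cxcl12(GFP/+); Dlx5(CreER/+); R26R(tdTomato/+), and in 2 libraries (Fgfr3 libraries, numbered 2 and 3 by the labels) they were Cxcl12(GFP/+); Fgfr3-iCreER; R26R(tdTomato/+). All mice thus carried a GFP insertion in a *Cxcl12* allele, tdTomato marked the progeny of cells in which the creER was active after the pulse, and littermates of a genotype were pooled. The study names as a potential limit that new recombination may go on for several days after the injection. The sort used GFP and tdTomato, while antibodies against blood and endothelial cells are described only for flow cytometry. By the study's methods, the Dlx5 libraries were read on a NovaSeq as paired ends and the Fgfr3 libraries on a HiSeq as single ends, while the labels name the HiSeq for every library. Sequencer, read type and lineage therefore cannot be told apart in any difference below.

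Total counts were 22035650 to 32563758 in the Dlx5 libraries and 56355203 and 58166285 in the Fgfr3 libraries. The cre sequence had 416 to 467 counts in the Dlx5 libraries and 1 in each Fgfr3 library, as the labels have it. The iCre.ERT2 sequence had 451 to 521 counts in the Dlx5 libraries and 4802 and 3762 in the Fgfr3 libraries. Levels are given as counts and as CPM, the usual depth-scaled form of a count, here with TMM factors (a correction for library composition). Differences are log2 fold changes of Fgfr3 over Dlx5 from edgeR's quasi-likelihood test, so that a negative value is a higher level in the Dlx5 libraries. Their standard errors are given as SE. A gene was called at an adjusted p (Benjamini-Hochberg) under 0.05 if its log2 fold change also exceeded 1 in either direction. Genes entered the test if 2 or more libraries reached a CPM of 10, and members below that took their value from a second fit with a minimum of 1.

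Chemokines are small secreted proteins that steer the migration of blood cells. They act on seven-pass receptors that signal through Gi proteins, and atypical receptors bind the ligands without this signalling and clear them. In bone marrow, stromal cells are a known source of ligands that hold or release blood cells, whereas most of the signalling receptors are carried by the blood cells themselves.

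Most of the ligands called were higher in the Dlx5 libraries, and the receptors called were higher in the Fgfr3 libraries. Of the 11 ligands with a CPM of at least 10, 8 were higher in the Dlx5 libraries (*Cxcl14*, *Ccl2*, *Cx3cl1*, *Cxcl1*, *Ccl7*, *Cxcl9*, *Ccl19* and *Cxcl16*), 1 was higher in the Fgfr3 libraries (*Ccl6*), and *Cxcl10* and *Ccl9* were not called. Of the 5 receptors at this level, 3 were higher in the Fgfr3 libraries (*Ccr2*, *Ccr1* and *Cxcr2*), and *Ackr4* and *Ccr7* were not called. The 3 receptors called reached this level only through the Fgfr3 libraries and had to differ to be tested, whereas *Ackr4* and *Ccr7* reached it in both groups. In all, 12 of 16 members were called, beside 29.5% of the 10088 genes tested. By direction, 8 members were higher in Dlx5, beside 13.1% of all genes, and 4 were higher in Fgfr3, beside 16.4%. The median log2 fold change of these members was -1.92 for the ligands, beside 0.01 for all genes. For the 5 receptors it was 1.44, a value set by the 3 that entered through Fgfr3. With scaling by library size alone the median of all genes was 0.22 and 66.3% of all calls were higher in Fgfr3, instead of 55.6%, while the members again had 8 and 4 calls.

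With the lower minimum, 30 members were tested, 18 ligands and 12 receptors. There, 9 ligands were higher in Dlx5 and 1 in Fgfr3, while 7 receptors were higher in Fgfr3 and 0 in Dlx5. The 17 calls among 30 stood beside 29.5% of 13225 genes tested, of which 12.9% were higher in Dlx5 and 16.6% in Fgfr3. These counts are a description of the members that passed. Of the receptors, 5 (*Ccr1*, *Ccr2*, *Ccr9*, *Cxcr2* and *Ackr3*) passed their minimum only through the Fgfr3 libraries, and *Ccl19* passed only through the Dlx5 libraries, so these 6 had to differ to be tested. Without Fgfr3 replicate 3, and with the same genes kept, 6 members were higher in Dlx5 and 1 (*Ccr2*) was higher in Fgfr3 at a CPM of at least 10, and 6 and 3 at a CPM of at least 1. Without Fgfr3 replicate 2 these counts were 8 and 4, and 10 and 7.

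**Figure D1:**
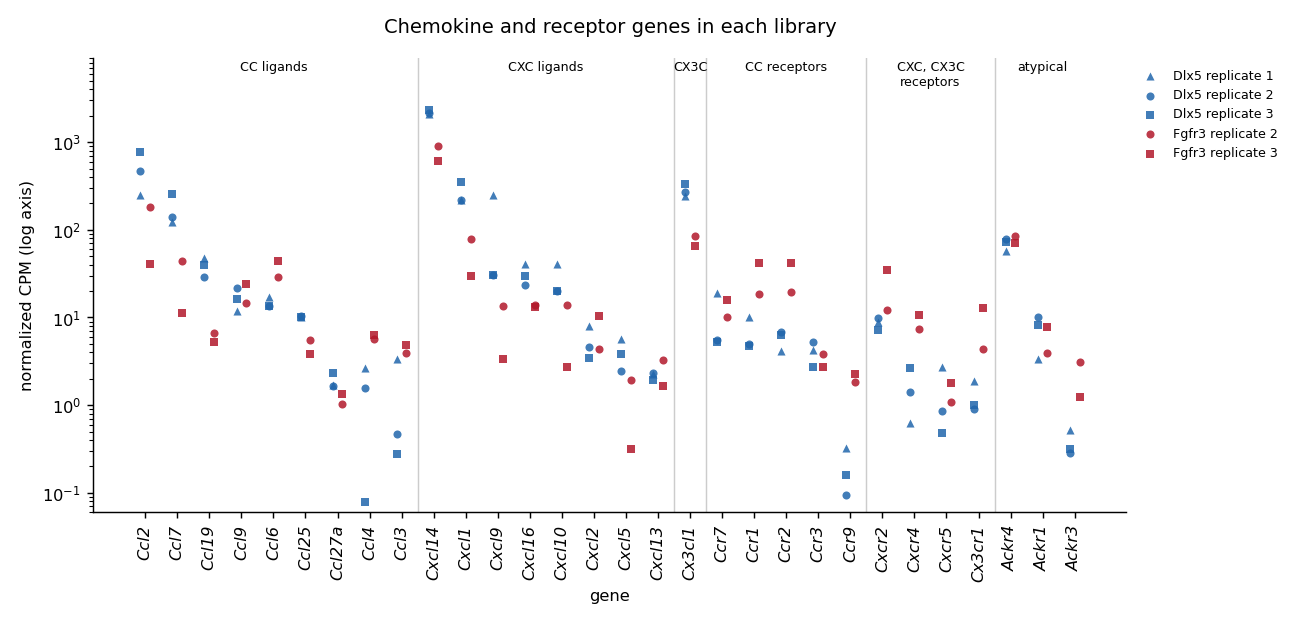
Normalized CPM (log axis) of the 30 members tested, by family, with a point for each library; blue marks the Dlx5 libraries, red the Fgfr3 libraries, and the shape gives the replicate number. *Cxcl14* stands highest in every library, and for the most abundant ligands both red points lie under the blue ones, whereas for *Ccr1*, *Ccr2*, *Cxcr2*, *Cxcr4* and *Cx3cr1* they lie above.

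The CXC ligands included the most abundant member. *Cxcl14* (chr13:56288643-56296551), a chemokine made by resting tissues, had 63609, 45998 and 58077 counts in the Dlx5 libraries and 55420 and 38960 in the larger Fgfr3 libraries. Its CPM was 2184 ± 118 (SD, n = 3) and 758 ± 202 (SD, n = 2). Every Dlx5 library was above both Fgfr3 libraries, and the log2 fold change was -1.53 (SE 0.22, adjusted p = 0.00143, edgeR).

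*Cxcl1* (chr5:90891241-90893115), a ligand of CXCR2 that attracts neutrophils, had 6693, 4591 and 8786 counts in the Dlx5 libraries and 4860 and 1894 in the Fgfr3 libraries. Its CPM was 261 ± 76.3 (SD, n = 3) against 54.4 ± 34.7 (SD, n = 2), without overlap, and the log2 fold change was -2.26 (SE 0.45, adjusted p = 0.00586, edgeR). The other CXCR2 ligands tested were not called in this fit. *Cxcl2* had 242, 97 and 87 counts against 270 and 667, groups that overlapped in CPM, with a log2 fold change of 0.46 (adjusted p = 0.481, edgeR). *Cxcl5* had 176, 52 and 97 counts against 118 and 20, with every Dlx5 library higher in CPM but a log2 fold change of -1.87 that missed the threshold (SE 0.80, adjusted p = 0.100, edgeR). It was called by DESeq2's Wald test (adjusted p = 0.0401), and at -3.66 without Fgfr3 replicate 2 (adjusted p = 0.0148, edgeR). *Cxcl2* shares 5.84% of its 50-base windows with *Cxcl3*, so that some of its reads could have been counted to the other.

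*Cxcl9* and *Cxcl10*, neighbouring genes for ligands of CXCR3 that interferons induce, differed between the Dlx5 libraries themselves. *Cxcl9* (chr5:92321347-92328079) had 7683, 644 and 763 counts in the Dlx5 libraries and 822 and 213 in the Fgfr3 libraries, or a CPM of 251, 30.3 and 30.3 against 13.4 and 3.36. Replicate 1 thus held most of the Dlx5 signal, although the other Dlx5 libraries were also above both Fgfr3 libraries. The log2 fold change was -3.64 (SE 1.19, adjusted p = 0.0401, edgeR). It was -1.86 without Dlx5 replicate 1 and the call was lost (adjusted p = 0.0522, edgeR). The call was also lost without Fgfr3 replicate 2, at -4.88, or replicate 3, at -2.90 (adjusted p = 0.0671 and 0.188, edgeR). *Cxcl10* (chr5:92346638-92348889) had 1233, 430 and 503 counts against 848 and 175, with a log2 fold change of -1.70 that was not called (SE 0.67, adjusted p = 0.0744, edgeR). It was called by DESeq2's Wald test and edgeR's exact test (adjusted p = 0.0106 and 0.0299), and at -3.21 without Fgfr3 replicate 2 (adjusted p = 0.00675, edgeR).

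*Cxcl16* (chr11:70453983-70459984), which encodes a membrane-anchored ligand of CXCR6, had 1234, 502 and 751 counts in the Dlx5 libraries and 853 and 833 in the Fgfr3 libraries. Its CPM was 31.3 ± 8.39 (SD, n = 3) against 13.5 ± 0.51 (SD, n = 2), and the log2 fold change was -1.21 (SE 0.25, adjusted p = 0.00746, edgeR). Its change dropped under the fold threshold without Dlx5 replicate 1, at -0.99. Exons of *Zmynd15* overlap 18.3% of the exon bases of *Cxcl16*, and the kit did not keep the strand. A part of the reads can therefore belong to *Zmynd15*, which had 120, 30 and 29 counts in the Dlx5 libraries and 60 and 81 in the Fgfr3 libraries. The B cell attractant *Cxcl13* had 70, 49 and 49 counts against 199 and 105 and a log2 fold change of 0.14 (adjusted p = 0.826, edgeR). Of the remaining CXC ligands, *Cxcl3* and *Cxcl15* had 0 to 6 counts in every library and were not tested.

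The 40 members with an entry in RefSeq's promoter table (GRCm38.p6; 250 bases before to 50 after a gene's start) were searched for short motifs on both strands. The NF-kB motif (GGG and TTCC with any 3 bases between), of the factor through which inflammatory signals switch on many chemokine genes, was found in 7 of the 40 (*Ccl20*, *Ccl9*, *Ccr3*, *Cxcl1*, *Cxcl10*, *Cxcl2* and *Cxcl3*), or 17.5%, and in 5.52% of 27025 promoters. The interferon response motif (GAAA repeated after any 2 bases) was found in 3 (*Ccl19*, *Cxcl10* and *Cxcl14*), or 7.5%, beside 3.49% of all promoters, and the AP-1 motif TGANTCA in 7, or 17.5%, beside 7.93%. The PU.1 motif GAGGAAGT was found only in *Cxcr3* among the 40, or 2.5%, beside 3.28%. TATAAA on the gene's strand was found in 11, or 27.5%, beside 8.88%. The 250 bases before the start are shown for 4 ligands: the neighbours *Cxcl1* and *Cxcl2*, which carry 3 NF-kB matches each (2 of them overlapping) and of which only *Cxcl1* was called, *Cxcl10*, which carries 3 of the motifs, and *Cxcl14*, the highest member. They lie at chr5:90890995-90891244 and chr5:90903649-90903898 on the forward strand, and at chr5:92348890-92349139 and chr13:56296552-56296801 on the reverse strand. Each is written 5′ to 3′ on the gene's strand and ends at the base before the start, and capitals mark the motif matches, which run together where matches overlap.
Cxcl1: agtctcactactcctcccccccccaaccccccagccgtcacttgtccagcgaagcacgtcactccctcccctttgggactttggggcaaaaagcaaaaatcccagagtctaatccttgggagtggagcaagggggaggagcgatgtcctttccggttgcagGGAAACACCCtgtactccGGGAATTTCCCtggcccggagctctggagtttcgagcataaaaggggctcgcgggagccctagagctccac
Cxcl2: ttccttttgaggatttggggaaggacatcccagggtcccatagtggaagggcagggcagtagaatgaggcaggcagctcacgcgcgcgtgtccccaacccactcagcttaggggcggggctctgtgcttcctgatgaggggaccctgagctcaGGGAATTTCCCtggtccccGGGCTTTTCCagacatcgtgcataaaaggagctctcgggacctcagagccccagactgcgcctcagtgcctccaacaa
Cxcl10: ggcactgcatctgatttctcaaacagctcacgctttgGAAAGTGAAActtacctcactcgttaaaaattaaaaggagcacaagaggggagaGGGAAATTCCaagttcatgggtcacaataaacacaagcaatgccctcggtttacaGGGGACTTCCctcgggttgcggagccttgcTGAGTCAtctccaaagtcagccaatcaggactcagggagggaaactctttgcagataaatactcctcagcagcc
Cxcl14: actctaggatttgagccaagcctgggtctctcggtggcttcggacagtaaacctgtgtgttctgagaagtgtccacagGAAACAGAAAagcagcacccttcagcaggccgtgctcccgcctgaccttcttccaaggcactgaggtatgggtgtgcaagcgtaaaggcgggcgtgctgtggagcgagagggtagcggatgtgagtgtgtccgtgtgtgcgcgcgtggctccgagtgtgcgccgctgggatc

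The run of 11 letters GGGAATTTCCC stood in both *Cxcl1* and *Cxcl2*, at positions -71 and -97 from the start, where it is read as a match on either strand. *Cxcl1* was called higher in Dlx5 and *Cxcl2* was not called, so that this shared letter match was not accompanied by a shared difference. The matches are letters in a window, and binding was not measured.

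The CC ligands held 4 genes that were higher in Dlx5 and 1 that was higher in Fgfr3, of 9 tested and 18 in all. *Ccl2* (chr11:82035571-82037453) and *Ccl7* (chr11:82045712-82047525) are neighbouring genes for ligands of CCR2 that draw monocytes. *Ccl2* had 7628, 9941 and 19508 counts in the Dlx5 libraries and 11051 and 2575 in the Fgfr3 libraries, or a CPM of 498 ± 265 (SD, n = 3) and 110.1 ± 98.3 (SD, n = 2). The Dlx5 libraries ranged from 249 to 776, and Fgfr3 replicate 2, at 179.6, was close to the lowest of them. The log2 fold change was -2.18 (SE 0.71, adjusted p = 0.0400, edgeR), and the call was lost without Dlx5 replicate 2 (-2.23), Dlx5 replicate 3 (-1.71) or Fgfr3 replicate 3 (-1.41), with adjusted p from 0.0704 to 0.131 (edgeR). It was also lost, at -1.95, with a trend on transcript length removed (adjusted p = 0.0712, edgeR).

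*Ccl7* had 3739, 3009 and 6437 counts in the Dlx5 libraries and 2694 and 715 in the Fgfr3 libraries. Its CPM was 173 ± 72.4 (SD, n = 3) and 27.5 ± 23.0 (SD, n = 2), without overlap. The log2 fold change was -2.65 (SE 0.62, adjusted p = 0.0113, edgeR), and it was called with each library left out in turn. For both genes, Fgfr3 replicate 3 was the lowest library, at 0.226 times replicate 2 for *Ccl2* and 0.258 times for *Ccl7*. *Cxcl1* showed the same order, at 0.378 times.

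*Ccl19* (chr4:42754525-42756577), a ligand of CCR7 that guides T cells and dendritic cells in lymphoid tissue, had 1476, 611 and 996 counts in the Dlx5 libraries and 409 and 329 in the Fgfr3 libraries. Its CPM was 38.8 ± 9.71 (SD, n = 3) against 5.92 ± 1.03 (SD, n = 2), and the log2 fold change was -2.71 (SE 0.28, adjusted p = 0.00042, edgeR). The value is uncertain, because 52.0% of the gene's 50-base windows also occur in copies of it. The copies were counted unevenly: *Ccl19-ps3* had 112, 5 and 63 counts in the Dlx5 libraries and 0 in both Fgfr3 libraries, whereas *Ccl19-ps1* had 21, 0 and 0 against 114 and 89. Every copy counted was below *Ccl19* in every library.

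*Ccl25* (chr8:4325210-4360020), a ligand of CCR9 known from thymus and gut, had 307, 219 and 252 counts in the Dlx5 libraries and 345 and 244 in the Fgfr3 libraries. Its CPM of 10.1 ± 0.17 (SD, n = 3) against 4.73 ± 1.24 (SD, n = 2) gave a log2 fold change of -1.12 (SE 0.28, adjusted p = 0.0158, edgeR, lower minimum). This value lay close to the fold threshold, and the call was lost at -0.89 with scaling by library size alone and without Dlx5 replicate 2, Dlx5 replicate 3 or Fgfr3 replicate 3 (-0.85 to -1.13, adjusted p = 0.0504 to 0.0723, edgeR). The skin chemokine *Ccl27a* had 52, 35 and 59 counts against 64 and 85 and a log2 fold change of -0.69 (adjusted p = 0.294, edgeR), with 45.0% of its windows shared with copies.

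*Ccl6* (chr11:83587882-83593087), a rodent chemokine made by myeloid cells, was the ligand that was higher in Fgfr3. It had 522, 287 and 344 counts in the Dlx5 libraries and 1785 and 2781 in the Fgfr3 libraries. Its CPM was 14.7 ± 1.98 (SD, n = 3) against 36.4 ± 10.5 (SD, n = 2), without overlap, and the log2 fold change was 1.30 (SE 0.23, adjusted p = 0.00361, edgeR). Without Fgfr3 replicate 3 it was 1.04 and still called, and with the same genes kept it was 0.98, under the fold threshold. *Ccl9*, next to it and also made by myeloid cells, had 362, 455 and 404 counts against 911 and 1546 and a log2 fold change of 0.26 (adjusted p = 0.542, edgeR). The macrophage inflammatory proteins *Ccl3* and *Ccl4* were higher in CPM in both Fgfr3 libraries than in any Dlx5 library, but were not called. *Ccl3* had 103, 10 and 7 counts against 243 and 311 (log2 fold change 1.64, SE 0.94, adjusted p = 0.197, edgeR), and *Ccl4* had 82, 33 and 2 against 347 and 404 (log2 fold change 2.03, SE 0.94, adjusted p = 0.121, edgeR). Without Dlx5 replicate 1, which held most of its Dlx5 counts, *Ccl3* was called at 3.55 (adjusted p = 0.00389, edgeR).

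*Cx3cl1* (chr8:94772009-94782427), fractalkine, is a chemokine that stays anchored in the membrane and binds CX3CR1. It had 7481, 5696 and 8405 counts in the Dlx5 libraries and 5174 and 4097 in the Fgfr3 libraries. Its CPM was 282 ± 46.7 (SD, n = 3) against 74.4 ± 13.8 (SD, n = 2), and the log2 fold change was -1.92 (SE 0.21, adjusted p = 0.00047, edgeR). Together with *Ccl19*, *Ccl7*, *Cxcl1* and *Cxcl14*, it is one of the 5 ligands that kept their call under every alternative that was run. The lymphotactin gene *Xcl1* had 0 counts in each Dlx5 library and 17 and 14 in the Fgfr3 libraries, at least 2.08-fold higher against a floor of 3 counts per library, and was not tested.

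**Figure D2:**
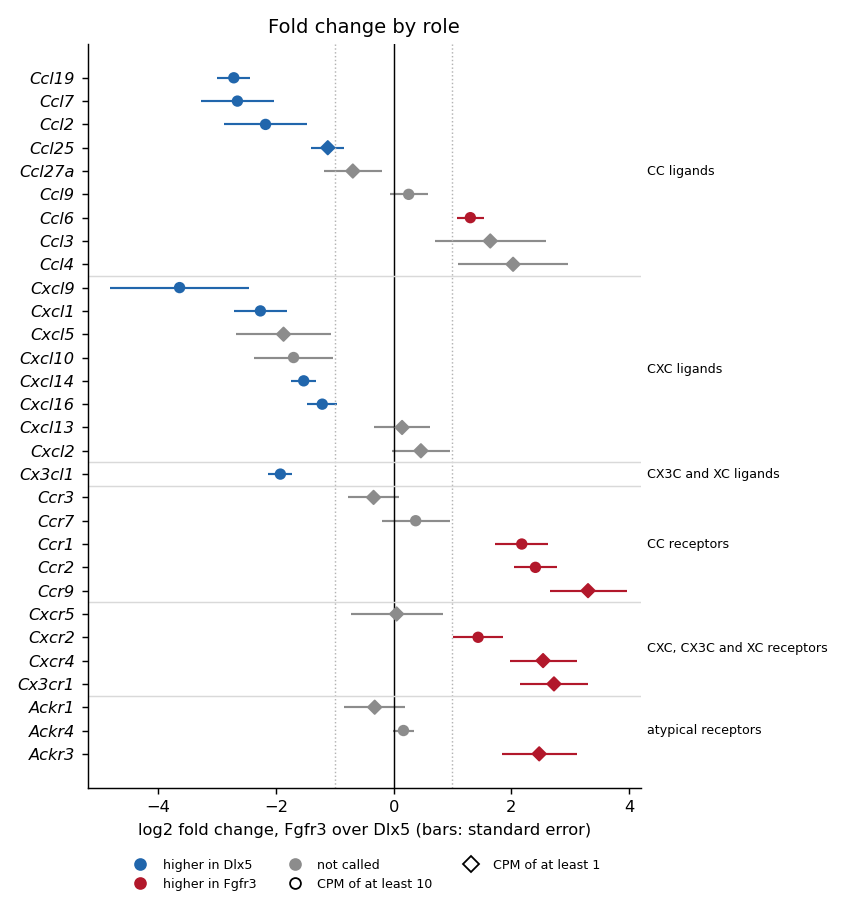
Log2 fold change of Fgfr3 over Dlx5 (horizontal axis) with its standard error as a bar, for the 30 members tested, by family; blue and red points were called higher in Dlx5 and in Fgfr3, grey points were not called, diamonds come from the lower minimum and dotted lines mark a log2 fold change of 1 in each direction. The 9 blue points are ligands, and the red points are *Ccl6* and 7 receptors.

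Compared per length of exon, the 4 highest ligands by group mean stood in the same order in both lineages. The order did not hold in every library. In Fgfr3 replicate 3, *Ccl7* (CPM 11.3 over 801 exon bases) was below *Ccl6* (43.9 over 1795) and *Cxcl1* (29.9 over 1875) per kilobase. In the Dlx5 libraries the level per kilobase (mean CPM divided by exon length in kilobases) was 1195 for *Cxcl14*, 437 for *Ccl2*, 216 for *Ccl7*, 139 for *Cxcl1* and 71.8 for *Cx3cl1*. In the Fgfr3 libraries the levels were 415, 96.8, 34.4, 29.0 and 18.9 in the same order of genes. Below the first 4 the orders parted, with *Ccl19* after *Cx3cl1* in Dlx5, at 44.8, and *Ccl6* above it in Fgfr3, at 20.3. The receptors stood lower than these ligands, with *Ackr4* the highest at 12.9 in Dlx5 and 14.5 in Fgfr3. By these means the highest signalling receptor was *Ccr7* in Dlx5, at 5.03, and *Ccr1* in Fgfr3, at 10.6. Dlx5 replicate 1 raised the mean of *Ccr7*, with a CPM of 19.0 beside 5.56 and 5.29 in replicates 2 and 3. In Dlx5 replicate 2, *Cxcr2* (CPM 9.94 over 3048 exon bases) was above *Ccr7* (5.56 over 1978) per kilobase.

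Among the CC receptors, *Ccr2* (chr9:124101950-124113557), through which monocytes leave the marrow, had 126, 146 and 160 counts in the Dlx5 libraries and 1216 and 2632 in the Fgfr3 libraries. Its CPM was 5.78 ± 1.47 (SD, n = 3) against 30.6 ± 15.4 (SD, n = 2), and the log2 fold change was 2.41 (SE 0.37, adjusted p = 0.00206, edgeR). *Ccr1* (chr9:123962124-123968692), a receptor of neutrophils and monocytes, had 308, 107 and 120 counts against 1137 and 2645, and a log2 fold change of 2.18 (SE 0.45, adjusted p = 0.00688, edgeR). In both genes the groups did not overlap, yet the Fgfr3 libraries were unequal, with replicate 3 at 2.10 times replicate 2 for *Ccr2* and 2.26 times for *Ccr1*. Without Fgfr3 replicate 3 and with the same genes kept, *Ccr2* was still called at 1.78, and *Ccr1* was not, at 1.47 (adjusted p = 0.0525, edgeR).

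*Ccr9* (chr9:123678439-123784330), the receptor of CCL25, had 10, 2 and 4 counts in the Dlx5 libraries and 112 and 142 in the Fgfr3 libraries, with a log2 fold change of 3.30 (SE 0.65, adjusted p = 0.00666, edgeR, lower minimum). Exons of other genes, among them *Slc6a20a*, overlap 21.5% of its exon bases, and the kit did not keep the strand, so a part of these reads can belong to those genes. *Ccr7*, the receptor of CCL19, had 582, 118 and 133 counts against 631 and 993, and groups that overlapped (log2 fold change 0.38, SE 0.58, adjusted p = 0.623, edgeR). Its highest Dlx5 library was replicate 1, and without it *Ccr7* was called at 1.26 (adjusted p = 0.0168, edgeR). The eosinophil receptor *Ccr3* had 131, 113 and 68 counts against 237 and 172 and a log2 fold change of -0.34 (adjusted p = 0.555, edgeR).

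*Cxcr2* (chr1:74153989-74161246), which neutrophils use to leave the marrow, had 270, 211 and 183 counts in the Dlx5 libraries and 750 and 2201 in the Fgfr3 libraries. Its CPM was 8.67 ± 1.33 (SD, n = 3) against 23.5 ± 15.9 (SD, n = 2), with replicate 3 at 2.85 times replicate 2. The log2 fold change was 1.44 (SE 0.42, adjusted p = 0.0270, edgeR), and it was 0.49 and not called without Fgfr3 replicate 3 with the same genes kept (adjusted p = 0.269, edgeR). The call was also lost when any 1 Dlx5 library was left out, at values of 1.32 to 1.54, with adjusted p from 0.0563 to 0.0717 (edgeR).

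*Cxcr4* (chr1:128588199-128592293), the signalling receptor of CXCL12, had 19, 30 and 66 counts in the Dlx5 libraries and 460 and 684 in the Fgfr3 libraries. Its CPM was 1.55 ± 1.01 (SD, n = 3) against 9.13 ± 2.34 (SD, n = 2), and the log2 fold change was 2.54 (SE 0.57, adjusted p = 0.0108, edgeR, lower minimum). *Cx3cr1* (chr9:119901616-120069879), the fractalkine receptor of monocytes and macrophages, had 58, 19 and 25 counts against 267 and 810, and a log2 fold change of 2.73 (SE 0.57, adjusted p = 0.00836, edgeR, lower minimum). For both genes every Fgfr3 library was above every Dlx5 library, and both calls were lost without Fgfr3 replicate 3, at 2.27 and 1.77 (adjusted p = 0.0594 and 0.0740, edgeR). The B cell receptor *Cxcr5* had 83, 18 and 12 counts against 67 and 112 and a log2 fold change of 0.05 (adjusted p = 0.964, edgeR).

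The atypical receptors did not move together. *Ackr3* (chr1:90203980-90216751), which takes up CXCL12, had 16, 6 and 8 counts in the Dlx5 libraries and 189 and 78 in the Fgfr3 libraries, and a log2 fold change of 2.47 (SE 0.64, adjusted p = 0.0187, edgeR, lower minimum). Unlike the signalling receptors called, it was lower in Fgfr3 replicate 3, at 0.401 times replicate 2, and its call was lost without replicate 2 with the same genes kept, at 1.67 (adjusted p = 0.142, edgeR). The call was also lost without Dlx5 replicate 2, at 2.31, or Dlx5 replicate 3, at 2.36 (adjusted p = 0.0636 and 0.0583, edgeR). *Ackr4* (chr9:104084157-104126933), which takes up CCL19 and CCL25, was the most abundant receptor, with 1756, 1678 and 1808 counts against 5229 and 4495. Its CPM was 69.4 ± 11.1 (SD, n = 3) and 78.0 ± 9.95 (SD, n = 2), and the log2 fold change was 0.17 (SE 0.18, adjusted p = 0.470, edgeR). *Ackr1*, a chemokine-binding protein of venules and red cell precursors, had 104, 216 and 205 counts against 240 and 496 and a log2 fold change of -0.32 (adjusted p = 0.648, edgeR), with 25.7% of its exon bases overlapped by *Cadm3*. *Ackr2* had 6 to 32 counts and was not tested.

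Of the 30 ligands and 22 receptors, 22 members passed neither minimum, among them *Ackr2*, *Ccl5*, *Ccl8*, *Ccl11*, *Ccl12*, *Ccl17*, *Ccl20*, *Ccl22*, *Ccl24*, *Ccl28*, *Ccr1l1*, *Ccr4*, *Ccr6*, *Ccr8*, *Ccr10*, *Cxcl3*, *Cxcl15*, *Cxcr3*, *Cxcr6*, *Xcl1* and *Xcr1*. Those named had 0 to 74 counts in any library, and no difference between the groups was tested at this depth. *Ccl8*, a monocyte attractant, had 0 counts in each Dlx5 library and 22 and 30 in the Fgfr3 libraries, at least 3.48-fold higher against the floor of 3 counts. *Ccl17*, a ligand of CCR4, had 26, 17 and 25 counts against 6 and 10, and *Ccl28*, a ligand of CCR10, had 48, 8 and 3 against 1 and 0. Of the 30 members tested, 12 lay wholly higher in Dlx5 in CPM and 10 wholly higher in Fgfr3. The shares among the 13225 genes tested were 32.1% and 34.5%, so that members without overlap were about as frequent as genes at large. At a CPM of at least 10 they were 9 and 4 of 16, beside 34.1% and 34.8% of genes.

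Chemokine genes lie in clusters, and the genes of a cluster did not all move one way. On chromosome 11, *Ccl2* and *Ccl7* were called higher in Dlx5, while their next neighbours *Ccl11*, *Ccl12* and *Ccl8* had at most 30 counts. Further along the same chromosome, from *Ccl5* at 83525778 to *Ccl4* at 83664683, *Ccl9*, *Ccl6*, *Ccl3* and *Ccl4* had log2 fold changes of 0.26, 1.30, 1.64 and 2.03, of which that of *Ccl6* was called. On chromosome 5, *Cxcl1* was called and *Cxcl2* beside it was not. *Cxcl9* and *Cxcl10*, side by side, were both higher in each Dlx5 library, and the call of either depended on the libraries included. On chromosome 9, 4 receptors were called, all higher in Fgfr3 (*Cx3cr1*, *Ccr9*, *Ccr1* and *Ccr2*), while *Ccr3*, between *Ccr1* and *Ccr2*, was not called, at -0.34.

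**Figure D3:**
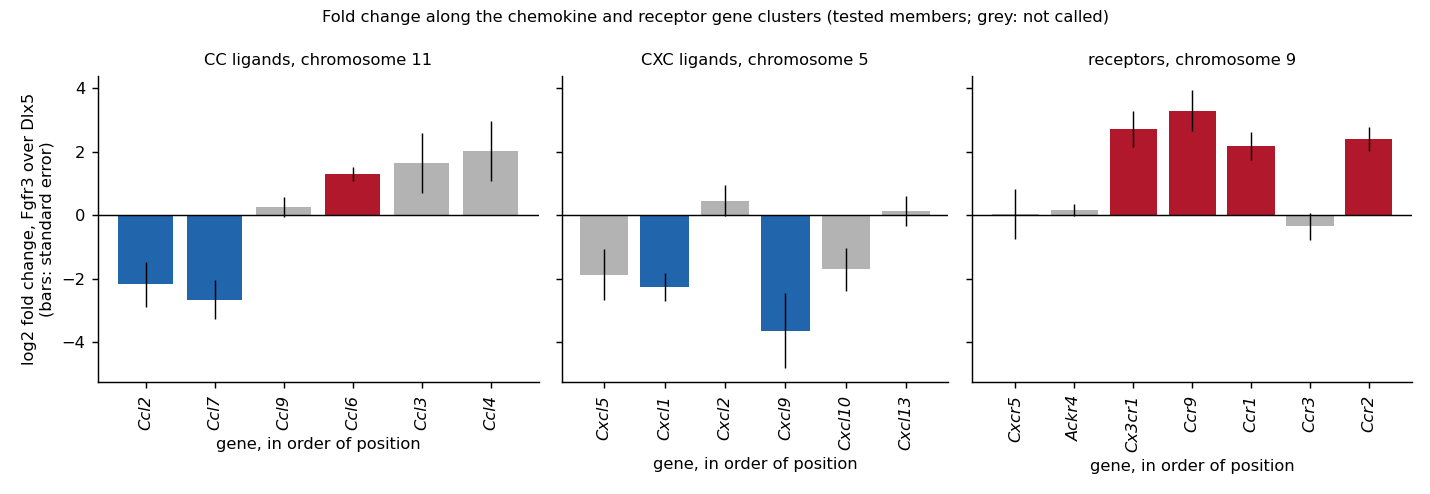
Log2 fold change of Fgfr3 over Dlx5 (vertical axis, with standard errors) for the members tested, in their order along chromosomes 11, 5 and 9; blue bars were called higher in Dlx5, red bars higher in Fgfr3 and grey bars were not called. The CC ligands of chromosome 11 run from -2.65 at *Ccl7* to 2.03 at *Ccl4*, and the 4 called receptors of chromosome 9 lie between 2.18 and 3.30.

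Set side by side, *Ccr2*, *Cxcr2*, *Cx3cr1* and *Ccr9*, which were called higher in Fgfr3, had ligands that were called higher in Dlx5. *Ccr2*, *Cxcr2* and *Ccr9*, like *Ccr1* and *Ackr3* below, passed their minimum only through the Fgfr3 libraries, and *Ccl19* only through the Dlx5 libraries. The filter thus set the direction of these genes. The log2 fold changes were -2.18 for *Ccl2* and -2.65 for *Ccl7* with 2.41 for their receptor gene *Ccr2*. For *Cxcl1* and *Cxcr2* they were -2.26 and 1.44, for *Cx3cl1* and *Cx3cr1* -1.92 and 2.73, and for *Ccl25* and *Ccr9* -1.12 and 3.30. The other CXCR2 ligands tested were not called, with *Cxcl2* at 0.46 and *Cxcl5* at -1.87. *Cxcl12* itself, which the sort selects on, measured 22003 ± 651 CPM (SD, n = 3) in Dlx5 and 6935 ± 1603 CPM (SD, n = 2) in Fgfr3, with a log2 fold change of -1.67 (SE 0.23, adjusted p = 0.00138, edgeR), while its receptor genes *Cxcr4* and *Ackr3* had 2.54 and 2.47. *Ccr1* had ligands on both sides: it was at 2.18, with *Ccl6* called in the same direction at 1.30, *Ccl3* at 1.64 and *Ccl9* at 0.26 not called, and *Ccl7*, which it also binds, at -2.65. In the remaining pairs, *Ccl19* was at -2.71 with *Ccr7* at 0.38 and *Ackr4* at 0.17, and the receptors of *Cxcl9* and *Cxcl16*, *Cxcr3* and *Cxcr6*, were not tested, with at most 74 and 35 counts. The values say nothing of whether ligand and receptor came from the same cells, since whole libraries were counted.

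Markers of blood cells were measured in the same libraries, as lists written for this purpose. Their counts stand beside 16.4% of all genes called higher in Fgfr3 and 13.1% higher in Dlx5. At the lower minimum these shares were 16.6% and 12.9%. A marker under the minimum in every Dlx5 library was tested only if both Fgfr3 libraries reached it, so the filter set the direction of such markers. In all, 18 of 18 pan-leukocyte markers were called higher in Fgfr3, and their summed CPM was 615 to 795 in the Dlx5 libraries and 1868 and 4055 in Fgfr3 replicates 2 and 3. *Ptprc*, the CD45 gene, had a CPM of 26.7 to 45.5 against 65.0 and 113. Of the monocyte and macrophage markers, 7 of 11 tested were called higher in Fgfr3 (sum 450 to 586 against 1619 and 3617), with *Csf1r* at 10.3 to 15.4 against 43.7 and 70.1. Of the neutrophil markers, 14 of 14 tested were called higher (sum 2642 to 3298 against 7433 and 18825), with *S100a8* at 253 to 404 against 428 and 1119. Without Fgfr3 replicate 3 these counts were 11 of 16, 2 of 10 and 8 of 13.

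The lymphoid lists moved less evenly. B lineage markers were called higher in 4 of 9 tested (sum 116 to 300.2 against 305 and 532), a count that was 9 of 9 without Dlx5 replicate 1, 2 of 9 without Dlx5 replicate 2, 2 of 6 without Fgfr3 replicate 2 and 0 of 6 without Fgfr3 replicate 3. T and NK markers were called higher in 8 of 9 at the lower minimum (sum 12.1 to 30.7 against 51.5 and 106), although *Cd3e* had 0 to 8 counts in Dlx5 and 0 and 44 in Fgfr3 and *Klrb1c* was at 0 in every Dlx5 library. Dendritic markers had 1 gene called higher in Dlx5 and 2 in Fgfr3 of 4 at the lower minimum (sum 46.0 to 59.8 against 31.0 and 30.0), with *Siglech* at 0.398 to 1.14 against 2.88 and 5.36.

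The remaining lists differed among themselves. Mast cell and basophil markers had 0 of 4 called (sum 4.49 to 103 against 100.2 and 188, *Cpa3* 1.18 to 4.76 against 3.33 and 8.87), and megakaryocyte markers 2 of 4 higher in Fgfr3 (sum 4.94 to 5.49 against 36.5 and 13.8, *Itga2b* 1.86 to 3.34 against 17.2 and 6.69). Erythroid markers had 2 of 9 higher in Dlx5 and 0 in Fgfr3 (sum 17814 to 36306 against 13891 and 20660.4). Endothelial markers had 2 of 14 higher in Dlx5 and 0 in Fgfr3 at the lower minimum (sum 71.7 to 98.2 against 65.0 and 87.6, *Pecam1* 6.28 to 12.6 against 15.1 and 18.9). Osteoclast markers had 4 of 5 higher in Fgfr3 at the lower minimum (sum 189 to 195 against 248.2 and 247.8, *Acp5* 11.3 to 18.8 against 56.4 and 65.1). *Ocstamp*, *Dcstamp* and *Calcr* were at 0 in every Dlx5 library, so that any of them that was tested could only be higher in Fgfr3. The defining stromal genes were present in every library: the 11 marrow stroma markers summed to 30799 to 32265 against 14671 and 13372, with 5 called higher in Dlx5 and 2 in Fgfr3, and *Lepr* at 1516 to 1594 against 1087 and 523. *Cxcl12*, which the sort selects on, is among the 11 and was at 21252 to 22405 against 8068 and 5802.

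The summed CPM of the 18 signalling receptors was 31.5 to 53.3 in the Dlx5 libraries and 82.5 and 167 in the Fgfr3 libraries, and the leukocyte, monocyte and neutrophil lists had the same order of groups. The summed CPM of the 30 ligands was 3355 to 4200 in Dlx5 and 1407 and 885 in Fgfr3, in the direction of the stroma list. *Cxcl14* alone held 2075 to 2310 of the ligand sum in Dlx5 and 901 and 615 in Fgfr3. The stroma list includes *Cxcl12*, on which the sort selects. That gene alone held 21252 to 22405 of the summed CPM in Dlx5 and 8068 and 5802 in Fgfr3. Fgfr3 replicate 3 had the higher level of 18 of 18 pan-leukocyte markers, of 15 of 15 neutrophil markers and of 11 of the 18 signalling receptors, and the lower sum of ligands. The part of these cells in the chemokine and receptor differences was not tested. In bulk libraries, fewer cells of a type and less RNA per cell cannot be told apart.

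**Figure D4:**
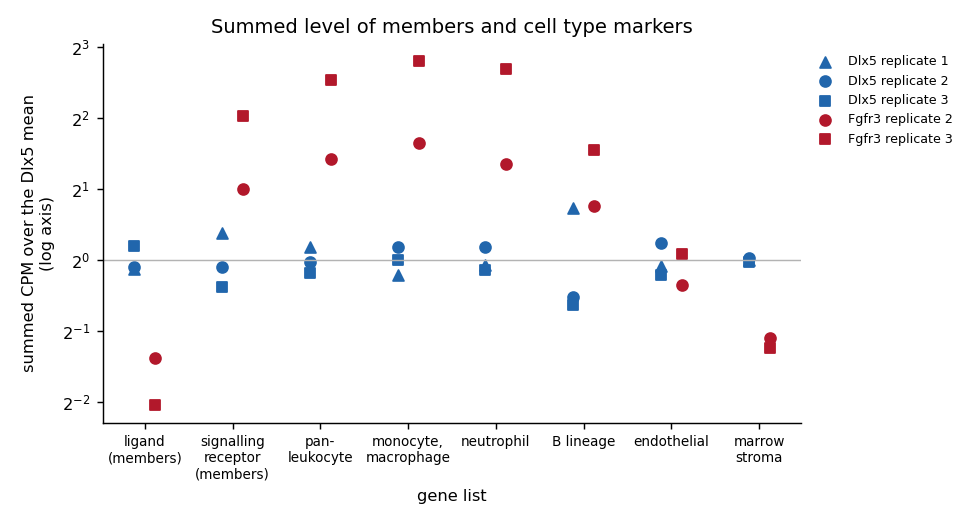
Summed CPM of member and marker lists in each library, divided by the mean of the 3 Dlx5 libraries (log axis); blue marks Dlx5, red Fgfr3, and the shape gives the replicate number. Signalling receptors lie at 2.01 and 4.07 times the Dlx5 mean in Fgfr3 replicates 2 and 3 and ligands at 0.384 and 0.242 times, beside 2.67 and 5.81 times for the pan-leukocyte list and 0.466 and 0.424 times for marrow stroma. The marrow stroma list includes *Cxcl12*, on which the sort selects, and *Cxcl14* held the largest part of each ligand sum.

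The genes that act around the chemokines were followed in 3 lists. In the same fit, 13.1% of all 10088 genes were called higher in Dlx5 and 16.4% higher in Fgfr3. Of 38 tested genes that act downstream of the receptors, 21 were called higher in Fgfr3 and 3 higher in Dlx5. The median log2 fold change of the 38 was 1.21, beside 0.01 for all genes. Of the 21, *Gng2*, *Grk3*, *Pik3cg*, *Pik3cd*, *Prex1*, *Fgr*, *Rgs14* and *Rgs18* were under a CPM of 10 in every Dlx5 library. They passed only through the Fgfr3 libraries, so the filter set their direction, and the median includes them. The same holds for any gene of the other lists under this minimum in every Dlx5 library. With a Fgfr3 library left out, fewer of these genes were called higher in Fgfr3, in part because fewer passed the minimum. The genes tested numbered 30 without Fgfr3 replicate 2 and 29 without Fgfr3 replicate 3. The largest changes called higher in Fgfr3 were *Rgs14*, a regulator of G protein signalling, at 3.50, and the receptor kinase *Grk6* at 3.14 (adjusted p = 0.00693 and 0.000135, edgeR). In the other direction they were the receptor kinase *Grk5* at -1.50 and *Rgs16* at -1.47 (adjusted p = 0.00565 and 0.00681, edgeR).

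Genes of inflammatory induction belong to the NF-kB, interleukin-1 and interferon pathways that switch on many of these ligands. Of 38 tested, 11 were called higher in Dlx5 and 4 higher in Fgfr3 (median -0.51). These calls stood beside 13.1% of all genes higher in Dlx5 and 16.4% higher in Fgfr3. Fewer were called higher in Fgfr3 without Fgfr3 replicate 2, when 36 were tested, but not with the same genes kept. The NF-kB subunit *Rel* was at -2.53 and the cytokine *Il6* at -2.41 (adjusted p = 0.000315 and 0.00894, edgeR). *Rel* had 2740, 2044 and 2641 counts in the Dlx5 libraries and 1283 and 806 in the Fgfr3 libraries. The largest in the other direction were the transcription factor *Cebpb* at 7.63 and *Il1b*, an inducer of these ligands, at 2.54 (adjusted p = 4.28e-05 and 0.00681, edgeR). *Cebpb* had 69, 92 and 148 counts against 48968 and 53574, with both Fgfr3 libraries alike in CPM, at 796 and 845. By the study's methods, sequencer and read type divide the libraries in the same way, and their part in this value was not tested.

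Of 11 tested genes of other chemoattractants and of proteins that handle them, 1 was called higher in Dlx5 and 5 higher in Fgfr3 (median 0.90). Fewer were called higher in Fgfr3 with either Fgfr3 library left out, when 8 were tested, and also with the same genes kept. The shares of all genes were again 13.1% higher in Dlx5 and 16.4% higher in Fgfr3. *Rarres2*, which encodes chemerin, was at -3.08 (adjusted p = 7.56e-05, edgeR), with a CPM of 299 ± 37.8 (SD, n = 3) against 35.4 ± 6.87 (SD, n = 2). The complement receptor *C5ar1* was at 2.66 and the leukotriene receptor *Ltb4r1* at 2.24 (adjusted p = 0.00179 and 0.00629, edgeR). Both were higher in Fgfr3 replicate 3 than in replicate 2.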

How the data were processed

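The authors aligned reads of 5 SMART-Seq libraries to mm10 with TopHat2 2.0.13 and Bowtie2 2.2.1 (submitters' processing notes) and deposited raw counts per gene, with reporter sequences added. The notes also name HTSeq, Cufflinks, Cuffdiff and DESeq2. The strand setting of the counting is not given in the sources used here, and the kit does not keep the strand. Depth-normalized and rlog values were deposited too and were not used.

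Symbols, gene types and coordinates came from GENCODE M21 (GRCm38, the build named mm10), which held 29965 identifiers and lacked 76. Members and lists were chosen with earlier results of these data known, from symbols and textbook roles. Members are named by symbol, and counts are printed for members called and for the highest of each family. From each pathway list the 2 largest calls in each direction are named, and from each marker list the first gene. A few genes that these rules cover are not reported here.

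The fit used edgeR 4.0.16 under R 4.3.3 (TMM, quasi-likelihood test, no covariate) over protein-coding genes and 5 reporters, with p-values adjusted over all genes tested. Totals over all features, 22035650 to 58166285, were the library sizes. With 3 against 2 libraries, their number limits precision more than these depths, and the floor of 3 counts covers counting error only, as there were no molecular identifiers. Standard errors were derived from the F statistic. The fit was tested on simulated data. All pairs of libraries differed beyond sampling noise. Alternatives were DESeq2 1.42.0's size factors or Wald test, library size alone, edgeR's exact test, other filters and thresholds, all features, a replicate block and leaving out each library. Keeping all genes when a Fgfr3 library was left out, and removing trends on GC content or transcript length, were chosen after seeing the data. Promoters came from RefSeq's table for 40 of 52 members.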

Additional observations from a re-analysis of the deposited data

How the results depend on the processing

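Of 546 member values recomputed under the alternatives, 481 kept their direction and their side of the threshold, 40 lost a call, 12 gained one and 13 changed sign. None of the 17 members called changed sign. In every alternative that tested them, 7 kept their call (*Ccl7*, *Ccl19*, *Cx3cl1*, *Cxcl1*, *Cxcl14*, *Ccr2* and *Ccr9*). *Ccr2* and *Ccr9* were tested in 17 and 16 alternatives. They were not tested where a Fgfr3 library was left out and the minimum applied anew. The filter had set the direction of *Ccr2*, *Ccr9* and *Ccl19*. The sign changes fell on 5 members that were not called. Leaving out 1 library in turn, their values ran from -0.88 to 0.12 for *Ackr1*, -0.087 to 0.65 for *Ccl9*, -0.39 to 0.57 for *Cxcl13*, -0.28 to 0.98 for *Cxcl2* and -0.35 to 1.09 for *Cxcr5*. With all genes kept, the values that changed sign were 0.10, -0.15, -0.42, -0.30 and -0.34 in the same order. *Cxcr5* was also at -0.079 with the trend on transcript length removed.

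A test against a 2-fold change (glmTreat) left 5 members higher in Dlx5 and 2 in Fgfr3 (5 and 4 at the lower minimum), 659 and 1011 of all genes (813 and 1205), 0 and 12 receptor signalling genes, 6 inflammatory genes higher in Dlx5 and 2 other chemoattractants higher in Fgfr3. Without a fold threshold, 2363 and 2517 of all genes were called (2753 in Dlx5 at the lower minimum), and 19 inflammatory genes in Dlx5. Members higher in Fgfr3 numbered 8 with a minimum CPM of 1 and 9 with no minimum, and other chemoattractants 8 in both. With all features, 3761 were higher in Dlx5 at the lower minimum.

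Leaving out 1 library in turn gave 6 to 8 members higher in Dlx5 and 1 to 4 in Fgfr3, and at the lower minimum 6 to 10 and 1 to 9. When a Fgfr3 library was left out and the minimum applied anew, 13 members were tested, because *Ccr1*, *Ccr2* and *Cxcr2* pass only with both, and the lone library was taken to vary like the others. The lists also lost genes from the test there, with receptor signalling at 30 and 29 instead of 38. The ranges over all genes were 1029 to 1465 in Dlx5 and 997 to 1680 in Fgfr3, and at the lower minimum 1307 to 1906 and 1520 to 2282. For the lists they were 2 to 3 and 11 to 21 for receptor signalling, 8 to 12 and 2 to 5 for inflammatory induction, and 2 to 6 in Fgfr3 for other chemoattractants.

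Deviations from the group means correlated at 0.124 for libraries of number 2 and -0.0486 for number 3, across genes. The deviations of the 2 Fgfr3 libraries are exact opposites, so these values are not independent. They cannot decide whether the replicate numbers pair the libraries. With a replicate block, 7 members were higher in Dlx5 and 4 in Fgfr3 (8 and 10 at the lower minimum), and 1382 and 1678 of all genes. Removing a trend on GC content left 8 and 4 members called, and one on transcript length 7 and 4. For changes not explained by a filter, the cause was not tested. The 22 members that passed neither minimum were not compared at this depth.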
